A study of Mus musculus with 6 samples.

Results

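The mitochondrial genome of the mouse holds 37 genes, and 34 of them were rows of the 18288-row expression table: 13 messengers, 19 of the 22 transfer RNAs (tRNAs) and both ribosomal RNAs (rRNAs). They were picked by symbol alone: the names of the 13 protein genes, symbols made of Trn and 1 capital letter with an optional digit, and mt-Rnr1 and mt-Rnr2. TrnF, TrnD and TrnK were not analysed here. The family was put forward with results of the comparison below already known, so the fold changes and p-values of its members are given as a description and support nothing further.

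The libraries came from CD8+ T cells activated in vitro and taken at day 2, 3 from Nae1T-KO mice and 3 from Nae1WT mice. Nae1 encodes a subunit of the enzyme that activates NEDD8, the ubiquitin-like protein that switches on cullin ubiquitin ligases. The labels number the libraries of each group as biological replicates and give no further detail of the mice, so the p-values measure the spread between these libraries. The sources used here do not name the allele, the driver of the deletion or the activating agent. Nae1 itself had normalized counts of 390.3, 338 and 367 in Nae1T-KO cells, against 1601, 1806 and 1882 in Nae1WT cells, a log2 fold change of -2.27 (SE 0.09). Between 15628300 and 25444700 reads per library were assigned to rows of the table.

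Mitochondrial DNA is transcribed from promoters on both strands into long precursors that carry many genes each. The tRNAs lie between most of the messengers and the rRNAs, and cutting at the tRNA ends releases the RNAs on either side, a layout known as tRNA punctuation. The messengers encode core subunits of respiratory complexes I, III and IV and of the ATP synthase, complex V, all of which also hold subunits made from nuclear genes. In activated T cells mitochondrial mass and respiration are known to grow as the cells prepare to divide.

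In the table, 25 of the 34 genes belong to the transcript of the heavy strand and 9, ND6 and 8 tRNAs, to that of the light strand. Messenger RNA had been captured on poly-T beads. Mitochondrial messengers are known to carry short poly(A) tails, ND6 being a known exception in human cells, whereas mature tRNAs end in CCA. Whether the reads in a tRNA row came from the mature tRNA, from uncut precursor or from the ends of neighbouring transcripts cannot be told apart in these counts.

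Sequences of 5 tRNAs that fell and of 1 that did not are shown here because the tRNAs were the kind with the lowest fold changes, and the anticodon is in capitals. All are RNA-strand sequences written as DNA, 5′ to 3′, from the GENCODE vM21 transcripts (GRCm38, mm10). TrnG, the glycine tRNA at chrM:9391-9458, lies between COX3 and ND3. TrnH, for histidine, is at chrM:11546-11612, and TrnL2, the leucine tRNA at chrM:11671-11741, lies in the same run of heavy-strand tRNAs between ND4 and ND5. TrnN, for asparagine at chrM:5089-5159, and TrnP, for proline at chrM:15356-15422, are light-strand genes. TrnY, the tyrosine tRNA at chrM:5260-5326, is also on the light strand and is shown as the one tested gene with an estimate above 0.
TrnG: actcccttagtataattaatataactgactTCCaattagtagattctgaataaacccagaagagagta
TrnH: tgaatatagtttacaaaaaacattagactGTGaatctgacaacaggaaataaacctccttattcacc
TrnL2: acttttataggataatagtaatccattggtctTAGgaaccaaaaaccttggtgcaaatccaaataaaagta
TrnN: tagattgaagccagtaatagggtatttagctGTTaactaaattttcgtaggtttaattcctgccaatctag
TrnP: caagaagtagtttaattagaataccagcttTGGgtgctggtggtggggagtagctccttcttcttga
TrnY: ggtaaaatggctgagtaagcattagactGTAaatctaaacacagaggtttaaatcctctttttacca

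Mitochondrially encoded genes together took 2.15%, 2.09% and 2.89% of the reads of the Nae1T-KO libraries, against 2.75%, 3.10% and 2.85% of the reads of the Nae1WT libraries. The means were 2.38% ± 0.443 in Nae1T-KO cells and 2.90% ± 0.182 in Nae1WT cells (SD, n = 3 each). Nae1T-KO replicates 1 and 2 lay below every Nae1WT library, whereas replicate 3 lay among them, so the groups overlapped. The 13 messengers made up nearly all of these reads, with 1.93%, 1.92% and 2.67% in Nae1T-KO libraries and 2.52%, 2.85% and 2.60% in Nae1WT libraries. They overlapped in the same way, through Nae1T-KO replicate 3. The tRNAs took a far smaller share, 0.0130%, 0.0128% and 0.0158% in Nae1T-KO libraries and 0.0194%, 0.0214% and 0.0238% in Nae1WT libraries. Here all 3 Nae1T-KO libraries were below all 3 Nae1WT libraries. The exact 95% binomial intervals of the tRNA shares, which cover counting error only, did not overlap between the groups either: the highest in Nae1T-KO cells ended at 0.0164% and the lowest in Nae1WT cells began at 0.0187%. In bulk RNA, fewer cells of a type and less RNA per cell cannot be told apart.

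**Figure D1:**
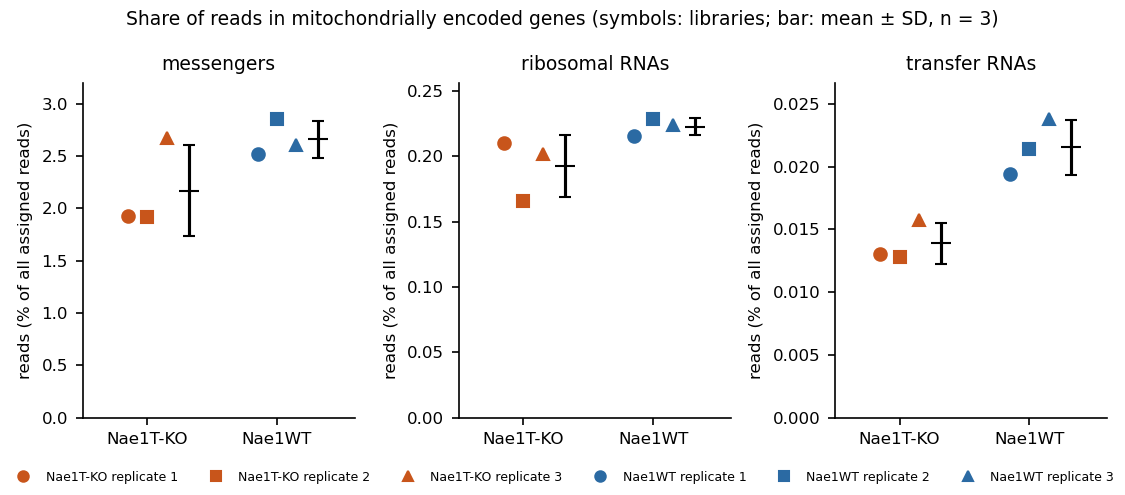
Share of all assigned reads, in percent, that fell in the 13 messengers, the 2 rRNAs and the 19 tRNAs of mitochondrial DNA. Each symbol is a library and the bar is the mean ± SD of 3; the Nae1T-KO symbols lie below all Nae1WT symbols for rRNAs and tRNAs, while Nae1T-KO replicate 3, at 2.67%, lies among the Nae1WT messengers.

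Of the 34 genes, 30 passed the filter of a normalized count of at least 10 in at least 3 libraries, and these 30 had at least 10 in every Nae1T-KO library. Levels were compared with limma on log2(normalized count + 1), a scale that understates the change of low genes, with Benjamini-Hochberg adjustment over all 13819 rows tested. At an adjusted p under 0.05, 11 of the 30 fell and 0 rose. Over all rows tested 6.18% fell and 6.53% rose at that threshold, 12.7% in either direction. At an unadjusted p under 0.05 by limma, 21 of the 30 were lower and 0 higher. The same threshold was met in either direction by 4024 of the 13819 rows tested. Neither edgeR nor DESeq2 on recovered reads called any mitochondrially encoded gene higher. In 16 of the 30 the 3 Nae1T-KO libraries were all below the 3 Nae1WT libraries, and in none were they all above. The same held for 17.0% of all rows tested, with 16.7% all above. The estimate was negative for 29 of the 30, with a median log2 fold change of -0.51, against -0.01 over all rows tested.

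The 11 that fell were 8 of the 15 tested tRNAs and 3 of the 13 messengers. The median log2 fold change was -0.66 for tRNAs, -0.43 for messengers and -0.22 for the 2 rRNAs. The plots of fold change by kind and of each library along the genome show both the shared direction and the wide errors of several members.

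**Figure D2:**
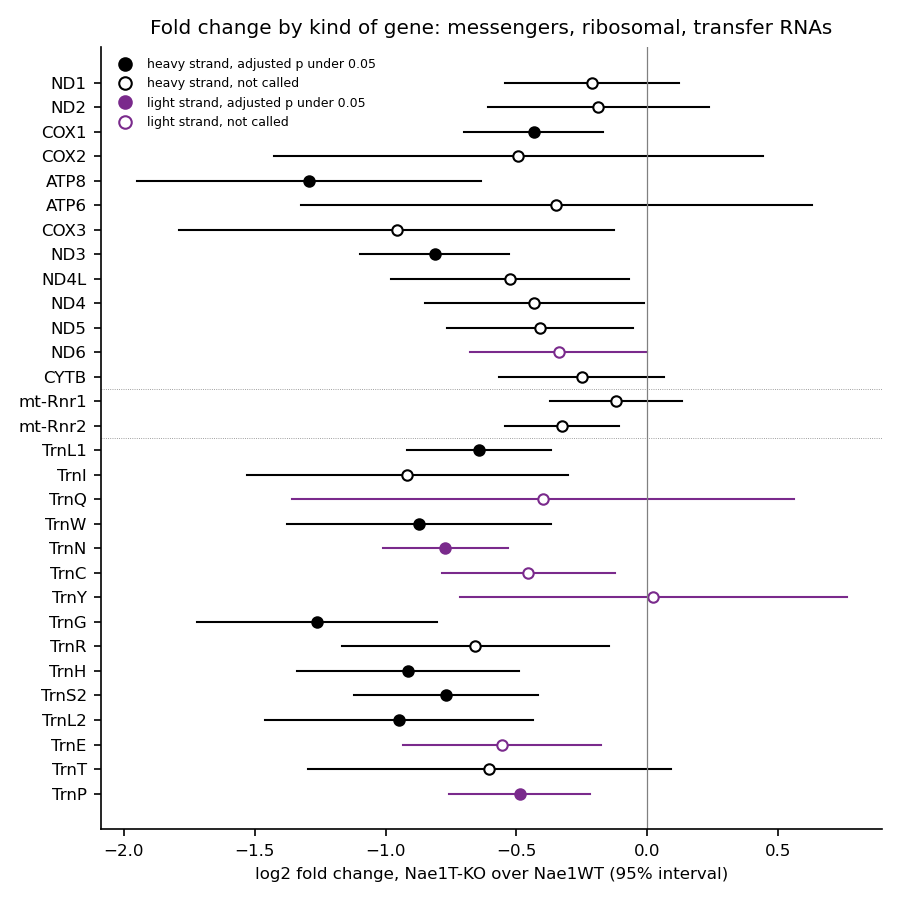
Log2 fold change of Nae1T-KO over Nae1WT with its 95% interval for the 30 tested genes, messengers at the top, then rRNAs, then tRNAs, each in genome order. Filled points passed an adjusted p of 0.05 (3 messengers and 8 tRNAs), open points did not, and purple marks the light strand; ATP8 at -1.29 and TrnG at -1.26 lie farthest to the left.

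**Figure D3:**
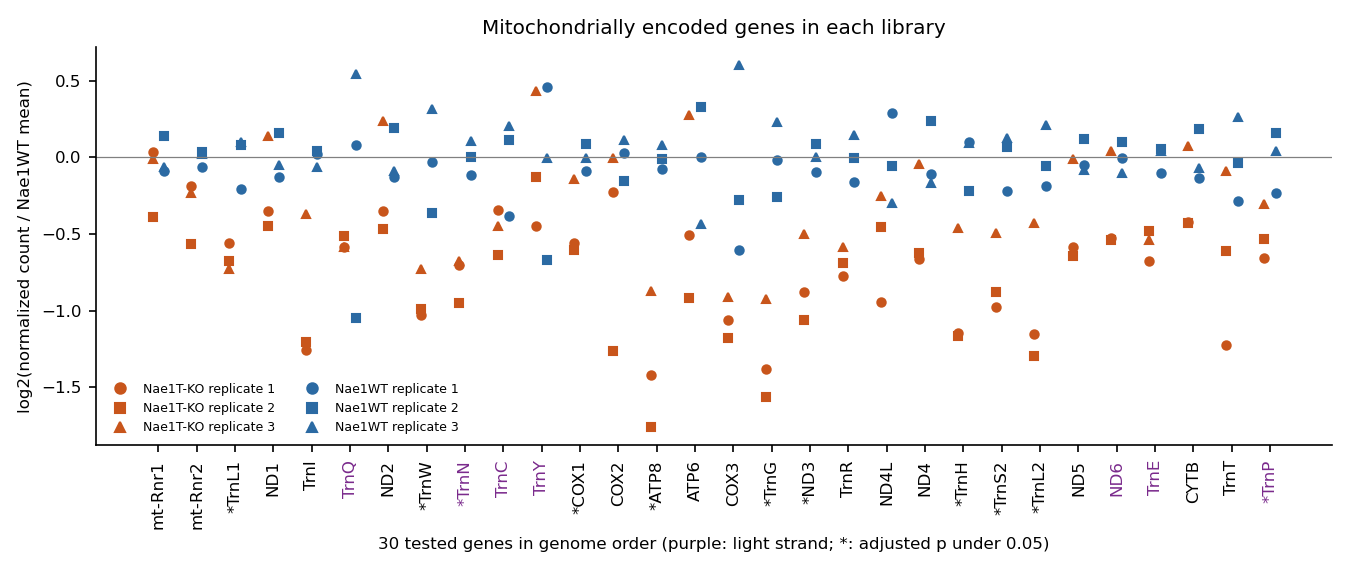
Log2 of each library's normalized count over the Nae1WT mean, for the 30 tested genes in genome order. Orange symbols are Nae1T-KO libraries and blue symbols Nae1WT libraries; Nae1T-KO replicate 3 (orange triangles) is the highest of the Nae1T-KO libraries for 24 of the 30.

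Among the tRNAs, the heavy-strand genes gave 6 falls out of 9 tested, with a median log2 fold change of -0.87. TrnG had normalized counts of 58.2, 51.1 and 79.8 in Nae1T-KO cells, against 149.8, 126 and 177 in Nae1WT cells. Its groups lay far apart and its log2 fold change was -1.26 (SE 0.21, limma adjusted p = 0.0042). TrnH had 147, 145 and 236 in Nae1T-KO cells and 349, 279 and 347 in Nae1WT cells, a log2 fold change of -0.91 (SE 0.19, limma adjusted p = 0.0131). TrnL2 had 315, 286 and 522 in Nae1T-KO cells and 616, 675 and 814 in Nae1WT cells, with a log2 fold change of -0.95 (SE 0.22, limma adjusted p = 0.0302). For both, Nae1T-KO replicate 3 was the highest Nae1T-KO library and still below every Nae1WT library. TrnS2, the serine tRNA between them, fell by 0.77 on the log2 scale, with 129, 137 and 179.7 in Nae1T-KO cells and 217, 264 and 276 in Nae1WT cells. TrnS2 and TrnL2 overlap by 1 base.

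TrnL1, the other leucine tRNA, lies between mt-Rnr2 and ND1 and had 199, 183 and 177 in Nae1T-KO cells, against 254, 309 and 314 in Nae1WT cells. Its log2 fold change was -0.64 (SE 0.12, limma adjusted p = 0.0091), and here Nae1T-KO replicate 3 was the lowest of its group. TrnW, for tryptophan, had 36.9, 37.9 and 45.4 in Nae1T-KO cells and 73.7, 58.5 and 93.6 in Nae1WT cells (log2 fold change -0.87, SE 0.23, limma adjusted p = 0.0316). The other 3 heavy-strand tRNAs did not pass the test. TrnI, for isoleucine, came closest at an adjusted p of 0.0549 and a log2 fold change of -0.92, with 21.2, 22.0 and 39.4 in Nae1T-KO cells and 51.6, 52.3 and 48.7 in Nae1WT cells. TrnR, for arginine, was at -0.66 and TrnT, for threonine, at -0.60. The groups did not overlap for TrnI and TrnR and overlapped for TrnT.

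Of the 6 light-strand tRNAs tested, 2 fell and the median log2 fold change was -0.47. TrnN had normalized counts of 334, 282 and 340.3 in Nae1T-KO cells, against 502, 545 and 585 in Nae1WT cells, a log2 fold change of -0.77 (SE 0.11, limma adjusted p = 0.0019). It had the lowest adjusted p of the 30 genes. TrnP had 523, 573 and 670.5 in Nae1T-KO cells and 705, 925 and 851 in Nae1WT cells (log2 fold change -0.49, SE 0.12, limma adjusted p = 0.0266). TrnE, for glutamate, missed the threshold at -0.56 although its groups did not overlap, with 55.9, 64.3 and 61.6 in Nae1T-KO cells and 83.5, 93.0 and 92.1 in Nae1WT cells. TrnC, for cysteine, overlapped, with 568, 464 and 528 in Nae1T-KO cells and 554, 779.8 and 832 in Nae1WT cells. On recovered reads TrnC was called lower by DESeq2 (adjusted p = 0.0162) and not by edgeR (adjusted p = 0.0593). TrnY averaged 36.6 ± 11.6 in Nae1T-KO cells and 36.6 ± 13.7 in Nae1WT cells (SD, n = 3 each), and the 95% interval of its log2 fold change ran from -0.72 to 0.76. That interval holds the estimates of TrnP and TrnE but not those of TrnN and TrnG. TrnQ, for glutamine, had between 7 and 29 reads per library and an interval from -1.36 to 0.56.

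TrnS1, TrnA, TrnM and TrnV were below the filter and were not tested. TrnM, the methionine tRNA, had 1, 2 and 2 reads in Nae1T-KO libraries, against 8, 4 and 14 in Nae1WT libraries. TrnA, for alanine, had 3, 2 and 8 reads in Nae1T-KO libraries and 7, 9 and 10 in Nae1WT libraries. TrnS1 had 2 in each Nae1T-KO library and 5, 5 and 1 in Nae1WT libraries, and TrnV, for valine, had 2, 5 and 2 in Nae1T-KO libraries and 1, 3 and 2 in Nae1WT libraries. These counts are too small for more than TrnM's lack of overlap to be read from them. The most abundant tRNA rows, TrnP, TrnC, TrnL2 and TrnN, had at most 1118 reads in a library, so tRNA values rest on far fewer reads than those of the messengers. Of 172 tested nuclear rows that span at most 150 bases 1 fell and 1 rose, with a median log2 fold change of 0.09. That is 1.16% called, against 12.7% of all rows tested. These rows were chosen by span alone and not matched to the tRNAs for level or kind of RNA. They are therefore no gauge of the tRNA values. Among the 30 tested mitochondrial genes the log2 fold change was higher for longer genes (Spearman's rho 0.446) and for those with more reads (0.512). Over the 13 messengers these values were 0.473 and 0.676, and over the 15 tRNAs -0.192 and -0.196. These are descriptions across genes that share the same 6 libraries, and length and level were themselves related (0.766 over the 30). The part of length or level in the falls was not tested.

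Set against the messenger reads of the same library, which removes the scaling between libraries, the heavy-strand tRNAs stayed lower in Nae1T-KO cells. They had 2.60, 2.62 and 2.65 reads per 1000 messenger reads in Nae1T-KO libraries, against 3.72, 3.28 and 4.33 in Nae1WT libraries. The light-strand tRNAs overlapped, with 4.17, 4.07 and 3.27 in Nae1T-KO libraries and 3.99, 4.21 and 4.82 in Nae1WT libraries. On this measure the Nae1T-KO libraries were all below the Nae1WT libraries for 7 of the 19 tRNAs: TrnL2, TrnS2, TrnH, TrnG, TrnM and TrnI on the heavy strand and TrnN on the light strand. The other 12 overlapped. Over all rows tested, 1.37% were all below on this measure and 27.8% all above, and the tRNAs that were left out of the test are among the 19. The difference between the strands was not tested.

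The messengers of complex I, the NADH dehydrogenase that feeds electrons into the chain, number 7. ND3, a short subunit gene at chrM:9459-9806, was the only one that fell by limma. It had normalized counts of 1099, 971 and 1429.8 in Nae1T-KO cells, against 1892, 2151 and 2029.7 in Nae1WT cells, a log2 fold change of -0.81 (SE 0.13, limma adjusted p = 0.0042). All Nae1T-KO libraries were clearly below all Nae1WT libraries. For the other 6 the groups overlapped and none passed by limma, while DESeq2 on recovered reads also called ND5 lower (adjusted p = 0.0429). ND1 had 66072, 61829 and 92967 in Nae1T-KO cells and 77124, 94042 and 81458 in Nae1WT cells, with a log2 fold change of -0.21 (SE 0.15). ND2, at -0.19, had 27945, 25801 and 41970.1 in Nae1T-KO cells and 32684, 40719.7 and 33541 in Nae1WT cells, and was the only gene for which Nae1T-KO replicate 3 exceeded every Nae1WT library. ND4 was at -0.43, ND4L at -0.52 and ND5 at -0.41, each with an adjusted p between 0.121 and 0.161.

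ND6 is the one messenger of the light strand and had 7152, 7085 and 10622 in Nae1T-KO cells, against 10266, 11056 and 9591 in Nae1WT cells. Its log2 fold change was -0.34 (SE 0.15, limma adjusted p = 0.170). Per 1000 heavy-strand messenger reads it had 19.9, 20.5 and 21.2 in Nae1T-KO libraries and 21.7, 19.9 and 19.4 in Nae1WT libraries. The ratio of light-strand to heavy-strand messenger reads thus overlapped between the groups. ND6 shares 14 bases with ND5 on the other strand, and whether reads were counted by strand is not given in the sources used here.

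CYTB, the one mitochondrial gene of complex III, had 46839, 46644 and 65959 in Nae1T-KO cells, against 57010.4, 71229 and 59795 in Nae1WT cells, with a log2 fold change of -0.25 (SE 0.14) and overlapping groups. Of the 3 messengers of complex IV, cytochrome c oxidase, COX1 at chrM:5328-6872 fell. It is the most abundant of the family, with 159698, 155063 and 213360.5 in Nae1T-KO cells and 221523, 250847 and 234788 in Nae1WT cells. The groups did not overlap and the log2 fold change was -0.43 (SE 0.12, limma adjusted p = 0.0395). COX3 did not overlap either but did not pass by limma, at a log2 fold change of -0.96 (SE 0.33, limma adjusted p = 0.129). On recovered reads COX3 was called lower by edgeR (adjusted p = 0.0277) and by DESeq2 (adjusted p = 0.0446). It had 1577, 1456 and 1749 in Nae1T-KO cells and 2167, 2712 and 5003 in Nae1WT cells, so that its mean in Nae1WT cells rested largely on replicate 3. COX2 had 2869.9, 1398 and 3348 in Nae1T-KO cells and 3416, 3019 and 3626 in Nae1WT cells, and overlapped through Nae1T-KO replicate 3.

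The 2 messengers of the ATP synthase share their RNA. ATP8, at chrM:7766-7969, ends inside ATP6, and the 43 bases that belong to both are in capitals below, from 20 bases before the ATP6 start to 20 bases after the ATP8 end. A second shared messenger joins ND4L and ND4 by 7 bases, likewise in capitals.
ATP8 end and ATP6 start: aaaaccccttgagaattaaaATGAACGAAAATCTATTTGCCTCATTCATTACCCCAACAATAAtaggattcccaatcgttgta
ND4L end and ND4 start: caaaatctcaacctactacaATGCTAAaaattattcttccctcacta
ATP8 had 14.5, 11.5 and 21.2 in Nae1T-KO cells, against 36.8, 38.7 and 41.1 in Nae1WT cells, the largest fall among the 30 at a log2 fold change of -1.29 (SE 0.30, limma adjusted p = 0.0190). These values stand for only 13, 13 and 21 reads in Nae1T-KO libraries and 30, 37 and 54 in Nae1WT libraries. ATP6 had 1279, 963 and 2202 in Nae1T-KO cells and 1819.7, 2285 and 1346 in Nae1WT cells, with overlapping groups and a log2 fold change of -0.35 (SE 0.38). Per kb ATP8 had 77.1 in Nae1T-KO cells and 191 in Nae1WT cells and ATP6 2176 in Nae1T-KO cells and 2668 in Nae1WT cells, although both genes lie on the same RNA.

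Levels per length were low in one stretch of the genome. Of the 13 messengers, COX2, ATP8, ATP6, COX3, ND3 and ND4L, which follow each other, had mean normalized counts per kb of 77.1 to 3711 in Nae1T-KO cells and 191 to 5817 in Nae1WT cells. The other 7 had 15966 to 113942 in Nae1T-KO cells and 19854 to 152569 in Nae1WT cells. The order per kb was COX1, ND1, CYTB and ND2, then ND5, ND4 and ND6, then the 6 of the stretch with ATP8 last. ND4 lay within the spread of ND5 and of ND6. By group means ND3 was above COX2 in Nae1WT cells, at 5817 ± 373 against 4903 ± 451 per kb (SD, n = 3 each). In Nae1T-KO cells its mean was below that of COX2 but within the spread, at 3353 ± 680 against 3711 ± 1486. There the order of the 2 genes was not the same in every library.

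**Figure D4:**
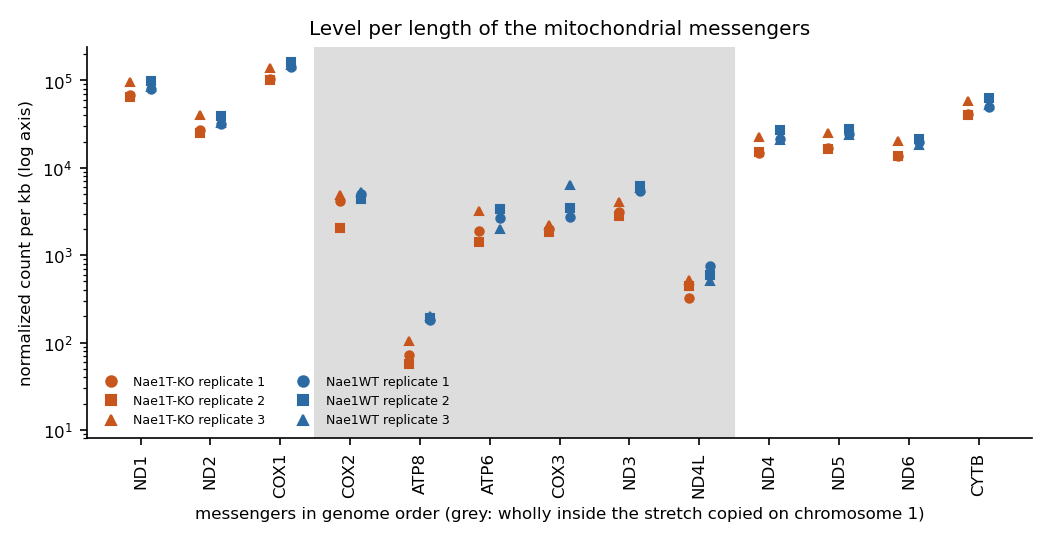
Normalized count per kb on a log axis for the 13 messengers in genome order, with Nae1T-KO libraries in orange and Nae1WT libraries in blue. The 6 messengers on grey, which lie wholly inside the stretch that is copied on chromosome 1, had group means of at most 5817 per kb, and the other 7 had at least 15966.

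The same stretch has a nearly identical nuclear copy. GENCODE vM21 lists 7 unprocessed pseudogenes at chr1:24611535-24616197 on the minus strand (GRCm38), in the same order as their mitochondrial counterparts and matching mitochondrial bases 6390 to 11042. They cover the end of COX1, the start of ND4 and almost the whole of COX2, ATP6, COX3, ND3 and ND4L. Of the 7 copies 5 had no mismatch over the aligned bases and the lowest identity was 99.7%. How the authors' counting treated reads that match both places is not given in the sources used here. Fold changes of the genes in the stretch are therefore uncertain. Copies of at least 95% identity also exist for parts of ND2 and ND5 and for all of COX1 and COX2.

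Of the 7 pseudogenes, Gm10925, the copy of ATP6, and Gm10222, the copy of ND4L, were rows of the table. Gm10925 had normalized counts of 1595, 1279.6 and 2087 in Nae1T-KO cells, against 3627, 4511 and 3345 in Nae1WT cells, a log2 fold change of -1.23 (SE 0.19, limma adjusted p = 0.0086). Of the reads of the pair ATP6 took 44.5%, 42.9% and 51.3% in Nae1T-KO cells, against 33.4%, 33.6% and 28.7% in Nae1WT cells, so that Gm10925 held the larger part in 5 of the 6 libraries. ATP6 and Gm10925 together had 2874, 2243 and 4289.5 in Nae1T-KO cells and 5447, 6796 and 4691 in Nae1WT cells. The summed counts did not overlap, while those of ATP6 alone did. Gm10222 had 209, 153 and 278 in Nae1T-KO cells and 363, 764 and 239 in Nae1WT cells and overlapped, as did its sum with ND4L.

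Inside the copied stretch 2 of 6 messengers fell, ND3 and ATP8, with a median log2 fold change of -0.67. Wholly outside it 0 of 5 passed by limma, with a median of -0.25 and unadjusted p-values of 0.0288 for ND5 and 0.0493 for ND6, and COX1, which fell, and ND4 are covered in part. The copied stretch also holds TrnG, TrnR and TrnS1. Of the 13 tested tRNAs outside it 7 fell, with a median of -0.64. The part of the nuclear copy in the values of the stretch was not tested.

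Within the messenger reads, the shares of 7 of the 13 genes did not overlap between the groups. Over all rows tested, reads per messenger read did not overlap for 29.2%, with 27.8% above and 1.37% below in Nae1T-KO cells. The shares of ND1, ND2 and CYTB were higher in Nae1T-KO cells. ND1 took 17.9% ± 0.325 of messenger reads in Nae1T-KO cells and 16.2% ± 0.320 in Nae1WT cells, ND2 took 7.73% ± 0.446 in Nae1T-KO cells and 6.87% ± 0.279 in Nae1WT cells, and CYTB took 13.0% ± 0.238 in Nae1T-KO cells and 12.1% ± 0.424 in Nae1WT cells (SD, n = 3 each). The shares of COX1, ND3, COX3 and ATP8 were lower. COX1 took 43.2% ± 1.24 in Nae1T-KO cells and 45.6% ± 1.19 in Nae1WT cells, and ND3 took 0.285% ± 0.0132 in Nae1T-KO cells and 0.391% ± 0.0116 in Nae1WT cells (SD, n = 3 each). These shares sum to the whole, so a fall of one raises the others, and they do not depend on the scaling between libraries. For ND1, ND2 and CYTB, whose levels overlapped through Nae1T-KO replicate 3, the shares of that library lay with those of the other Nae1T-KO libraries.

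**Figure D5:**
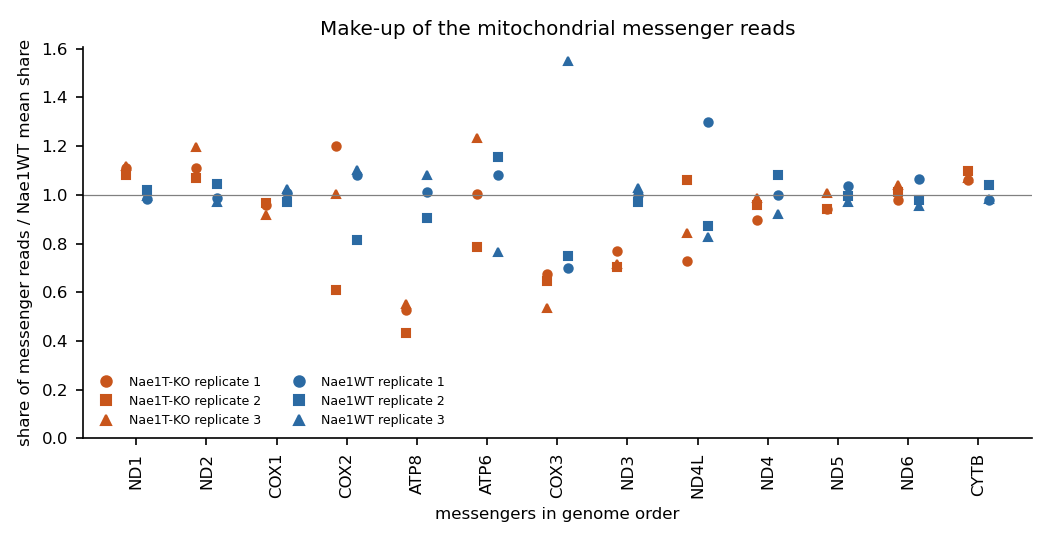
Share of each messenger in the reads of all 13, divided by its mean share in Nae1WT cells, per library and in genome order. The 3 Nae1T-KO libraries (orange) lie above all Nae1WT libraries (blue) for ND1, ND2 and CYTB and below them for COX1, ATP8, COX3 and ND3.

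The mitochondrial rRNAs, the small-subunit mt-Rnr1 and the large-subunit mt-Rnr2, did not pass by limma. mt-Rnr2 had normalized counts of 26873, 20661 and 26007 in Nae1T-KO cells, against 29333, 31281 and 31073 in Nae1WT cells, without overlap and with a log2 fold change of -0.33 (SE 0.10, limma adjusted p = 0.0542). It was called lower by DESeq2 on recovered reads (adjusted p = 0.0153) and by limma with no filter (adjusted p = 0.0442), and not by edgeR (adjusted p = 0.0660). mt-Rnr1 overlapped, with 13119, 9764 and 12703 in Nae1T-KO cells and 12073, 14114 and 12244 in Nae1WT cells. For each 100 reads of mt-Rnr2 there were 48.8, 47.3 and 48.8 reads of mt-Rnr1 in Nae1T-KO libraries, against 41.2, 45.1 and 39.4 in Nae1WT libraries, so the ratio was higher in every Nae1T-KO library. The capture of rRNA on poly-T beads was not measured.

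The size of the fall differed among Nae1T-KO libraries. By their levels of Xist and of 4 Y-linked genes, Nae1T-KO replicates 1 and 2 and Nae1WT replicate 3 were female and the other 3 libraries male. Among female libraries the Nae1T-KO mean was below the Nae1WT library for 30 of 30 genes, with a median log2 difference of -0.71. Among male libraries the Nae1T-KO library was below the Nae1WT mean for 23 of 30, with a median of -0.29. Both counts are over genes measured in the same libraries, and neither was set against all rows tested. For the 13 messengers the male median was -0.05, with 8 of 13 negative, and for the 15 tRNAs it was -0.40, with 13 of 15 negative. A fit with an interaction of group and sex, chosen after seeing the data, called 0 of the 30 genes by limma, with 10 at an unadjusted p under 0.05 and a lowest adjusted p of 0.162. Over all rows it called 6, with 585 at an unadjusted p under 0.05. The male Nae1T-KO group and the female Nae1WT group are 1 library each, assumed in that fit to vary like the others, so sex and any other feature of these libraries cannot be told apart. The counts of that fit therefore do not show whether the sexes differed. With sex as a covariate 10 of the 30 fell and COX1 did not pass.

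Leaving out Nae1T-KO replicate 3 raised the falls to 19 of 30, among them ND1, ND2, ND4, ND5, ND6 and CYTB. Leaving out Nae1T-KO replicate 2 or Nae1WT replicate 3 lowered them to 6, and leaving out Nae1WT replicate 2 to 7. Calls over all 13819 rows tested, in either direction, went from 1757 to 1790 without Nae1T-KO replicate 3. They fell to 1034 without Nae1T-KO replicate 2, to 954 without Nae1WT replicate 3 and to 844 without Nae1WT replicate 2. ND3, TrnN, TrnG, TrnH and TrnL1 passed in each of the 6 fits that left out a library. TrnS2 passed in 5 of these 6 fits, with an adjusted p of 0.0501 without Nae1WT replicate 3. ATP8 passed in 3 and lost its call when Nae1T-KO replicate 2, Nae1WT replicate 2 or Nae1WT replicate 3 was left out. TrnP passed in 2, without Nae1T-KO replicate 3 or Nae1WT replicate 1, and TrnW in 2, without Nae1T-KO replicate 3 or Nae1WT replicate 2. TrnL2 and COX1 passed in 1, without Nae1T-KO replicate 3. The highest adjusted p in the fits that lost the call was 0.0683 for ATP8, 0.101 for TrnP, 0.121 for TrnW, 0.111 for TrnL2 and 0.135 for COX1.

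Some marker lists of other cell types differed between the groups, and not all in the same direction. The CD4 and the myeloid and dendritic sums were higher in every Nae1T-KO library, and the NK and gamma-delta sum was lower. Of all single rows tested, 33.7% did not overlap between the groups in either direction. Summed normalized counts of 7 CD4 T cell markers ran from 557 to 931 in Nae1T-KO libraries and from 341 to 468 in Nae1WT libraries. That list includes the cytokine genes Il4, Il5 and Il13. A sum does not tell apart CD4 cells and expression of such genes in the CD8 cells. The 7 myeloid and dendritic markers in the table, of 12 listed, ran from 122 to 182 in Nae1T-KO libraries and from 62.7 to 79.9 in Nae1WT libraries. The 5 NK and gamma-delta T cell markers in the table, of 7 listed, ran from 2055 to 2522 in Nae1T-KO libraries and from 3562 to 3960 in Nae1WT libraries, with Nkg7, which activated CD8 T cells also express, on that list. The 8 CD8 T cell markers ran from 36527 to 38115 in Nae1T-KO libraries and from 39115 to 42534 in Nae1WT libraries, far above every other list. B cell and erythroid markers overlapped between the groups. Every row of the table has at least 11 reads over the 6 libraries. That a marker is in the table therefore does not show that its cell type was present. The part of these cells in the values above was not tested.

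Nuclear genes supply the enzymes that copy mitochondrial DNA, transcribe it and handle its RNAs. Of 105 such genes listed, 104 were tested, 13 fell and 2 rose, with a median log2 fold change of -0.06. That is 14.4% called in either direction, near the 12.7% of all rows tested. By direction the falls outnumbered the rises, whereas over all rows tested 6.18% fell and 6.53% rose. In 34 of the 104 the Nae1T-KO libraries were all below the Nae1WT libraries, and in 11 all above. Over all rows tested these were 17.0% and 16.7%. The direction of the list was not tested. Of 71 tested nuclear subunits of complexes I, III, IV and V, 7 fell and 64 did not pass, with a median of -0.08. The 9.86% called, against 12.7% of all rows tested, were all falls, and 6.18% of all rows tested fell. Among 10 transcription genes Tefm, the elongation factor, was the one that fell, with 328, 292 and 371 in Nae1T-KO cells, against 384, 501 and 501 in Nae1WT cells (log2 fold change -0.48, limma adjusted p = 0.0384). Its call held in 2 of the 6 fits that left out a library, without Nae1T-KO replicate 3 or Nae1WT replicate 1. Tfam, which packages mitochondrial DNA and starts transcription, had 1731, 1703 and 1965 in Nae1T-KO cells and 1961, 2054 and 2048 in Nae1WT cells and did not pass, at -0.17 with overlapping groups. Polrmt, the RNA polymerase, was at 0.15 and Tfb2m, its initiation factor, at -0.05, and neither passed. Of 18 genes of DNA replication and upkeep Lonp1, a matrix protease, rose by 0.26 on the log2 scale, a call that held in 1 of the 6 fits that left out a library, the one without Nae1T-KO replicate 3. Twnk, the helicase, was at -0.06 and Polg, the polymerase, at 0.02, and neither passed.

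Of the 4 genes whose products serve to free tRNAs from the precursor, 2 fell and 1 rose. Over all rows tested 6.18% fell and 6.53% rose. Prorp, also on this list, did not pass. Hsd17b10, a subunit of the RNase P of mitochondria, rose, with 1631, 1440.0 and 1686 in Nae1T-KO cells and 1197, 1329 and 1142 in Nae1WT cells (log2 fold change 0.37, limma adjusted p = 0.0191). That call was lost without Nae1T-KO replicate 1, Nae1WT replicate 1 or Nae1WT replicate 3, with a highest adjusted p of 0.0817. Trmt10c, its methyltransferase partner, fell by 0.38, and Elac2, which cuts the 3′ ends of tRNAs, fell by 0.25. Trmt10c passed in 2 of the 6 fits that left out a library, without Nae1T-KO replicate 3 or Nae1WT replicate 1, and Elac2 in 0, with adjusted p-values of 0.0521 to 0.106. Of 10 genes of tRNA modification 3 fell and 7 did not pass: Osgepl1, which modifies an adenosine beside the anticodon, by 0.66, Mto1, which modifies the wobble uridine, by 0.43, and Trnt1, which adds the CCA end, by 0.37. Leaving out Nae1WT replicate 2 ended the calls of Mto1 and Trnt1, and leaving out Nae1WT replicate 3 that of Trnt1. Trnt1 also serves tRNAs of the cytosol. Of 20 genes that charge mitochondrial tRNAs Rars2, for arginine, fell by 0.56 and Iars2, for isoleucine, by 0.34, the call of Iars2 holding in 3 of the 6 fits that left out a library, without Nae1T-KO replicate 1, Nae1WT replicate 1 or Nae1WT replicate 2.

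Tfb1m, which dimethylates the small rRNA, had 161, 155 and 173 in Nae1T-KO cells, against 287, 310.5 and 287 in Nae1WT cells, the largest fall of the nuclear lists at a log2 fold change of -0.85 (SE 0.11, limma adjusted p = 0.0014). Fastkd2, an RNA-binding protein needed for the large mitochondrial ribosomal subunit, had 1335, 1329 and 1286 in Nae1T-KO cells and 1778, 1958 and 1887 in Nae1WT cells (log2 fold change -0.51, limma adjusted p = 0.0015). Pnpt1, the polynucleotide phosphorylase of mitochondrial RNA decay, fell by 0.38. The other named genes of messenger stability did not pass: Lrpprc was at -0.08, its partner Slirp at -0.33 and the poly(A) polymerase Mtpap at -0.06. Of 12 translation factors 2 fell, Guf1 by 0.67 and Mtrf1 by 0.50, the call of Mtrf1 holding in 1 of the 6 fits that left out a library, without Nae1T-KO replicate 1. All 6 biogenesis regulators tested missed the threshold.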

How the data were processed

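The 6 libraries, 3 per group, were analysed. Per the labels' protocols, poly-T beads drew messenger RNA out of total RNA. Per the submitters' processing notes, bcl2fastq, HISAT2, DESeq2 1.42.0 and genome build mm10 were used. What the authors deposited is a single table, whose values are normalized counts (a non-negative signal). Dividing a library's values by the size of 1 read gave whole reads (to within 0.01) for 100% of values, and these recovered reads served the count tests. No row had fewer than 11 reads over the 6 libraries. Rows were tested with limma 3.58.1 in R 4.3.3 (mean-variance trend, robust) on log2(normalized count + 1), with Benjamini-Hochberg adjustment. edgeR 4.0.16 and DESeq2 1.42.0 on recovered reads were alternatives. Nuclear copies were found with BLAST 2.17.0 at 95% identity over at least 100 bases. Shares have exact (Clopper-Pearson) 95% intervals for counting error only. Every mitochondrially encoded gene is named, with 12 fixed nuclear genes and up to 3 called genes per list, those of largest change among means of 100 or more. The members and lists were chosen with earlier results of these data known.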

Additional observations from a re-analysis of the deposited data

How the results depend on the processing

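With the replicate number of the titles as a block, 968 rows passed against 1757 without it, as did 9 of the 30 mitochondrially encoded genes against 11 and 7 of the 104 nuclear genes of mitochondrial gene expression against 15. With a replicate block by library number on the 4 libraries that share one, the counts were 253, 3 and 3. Libraries of the same number did not deviate together, with correlations of -0.13, -0.18 and -0.27 for the title numbers, and the numbers were not read as pairs. Each pair of the same number joins a female and a male library. The correlations therefore cannot tell pairing and sex apart and do not exclude pairs. Leaving out 1 library at a time gave 844 to 1790 rows, 6 to 19 mitochondrially encoded genes and 8 to 15 nuclear genes, and a difference in the share of reads of -0.780 to -0.384 percentage points against -0.525. The other settings gave 10 to 15 mitochondrially encoded genes, the highest with DESeq2 on recovered reads. edgeR on recovered reads gave 11, of which 10 were shared, with COX3 in place of COX1. ND3 and TrnN passed under all 20 alternatives. Scaling to total reads gave 1176 higher and 622 lower rows, against 903 higher and 854 lower as deposited, and moved the median of all rows to 0.04. It kept the same 11 mitochondrially encoded genes. Estimates near 0 changed sign: over fits that left out 1 library mt-Rnr1 ran from -0.198 to 0.0147, TrnY from -0.268 to 0.281, Tfb2m from -0.102 to 0.0277 and Polg from -0.0244 to 0.101, and Polg was -0.00884 with sex as a covariate. The number of reads limits ATP8 and most tRNAs. The nuclear copy on chromosome 1 limits COX2, ATP6, COX3, ND3 and ND4L, and in part COX1 and ND4. ATP8, TrnG, TrnR and TrnS1 also lie inside the copied stretch.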
